A study of Mus musculus with 2 samples.

Results

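In the epithelium of the newborn mouse lens, 309 of 21739 barcodes carried the alpha-crystallin transcripts of lens cells but almost no mitochondrial transcripts. They are called low-mt barcodes here. A barcode was counted as low-mt if it had 949 to 4000 UMIs (unique molecular identifiers, which tag captured transcript molecules), at least 446 genes, at least 2% of its UMIs from Cryaa and Cryab together, and under 1% from the 13 protein-coding genes of the mitochondrial genome. Members were thus selected on measured values, so their mitochondrial and alpha-crystallin levels are given as a description only. Matched barcodes had the same range of UMIs and the same crystallin limit but 2 to 15% mitochondrial UMIs (686 barcodes), and deep barcodes had over 4000 and up to 20198 UMIs with the same mitochondrial range and crystallin limit (17997 barcodes).

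Both samples were pools of lens epithelium peeled with its capsule from 4 to 8 wild-type C57BL/6N pups at postnatal day 2 and dissociated with Collagenase/Dispase and trypsin, so that no treatment or genotype was compared. Replicate 1 held 93839132 UMIs in 12314 barcodes with a median of 6307 UMIs, and replicate 2 held 86033032 UMIs in 9425 barcodes with a median of 8050. The 2 libraries shared 27 barcode sequences, and 0 of the low-mt barcodes were among them. Because each pool holds several pups and no barcode is tied to a pup, n = 2 pools for each comparison. With so few pools edgeR gave every gene a spread estimated over genes together, which may follow abundance. The p-values therefore do not weigh a gene's own spread between the pools.

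The mitochondrial genome is transcribed inside the organelle, and its messages for subunits of the respiratory chain stay there, whereas most mitochondrial proteins are encoded in the nucleus and translated in the cytosol. Messages of secreted, membrane and lysosomal proteins are mainly translated on ribosomes bound to the endoplasmic reticulum (ER), and long noncoding RNAs such as Malat1 are kept in the nucleus. As background on this tissue, LECs (lens epithelial cells) divide across the epithelium at this age, most of all near the equator. At the equator they differentiate into fiber cells, which later lose their mitochondria, ER and nuclei. LECs also secrete the lens capsule, a thick basement membrane.

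Low-mt barcodes made up 1.09% of replicate 1 (134 barcodes, 95% exact interval 0.913 to 1.29%) and 1.86% of replicate 2 (175 barcodes, 1.59 to 2.15%), with intervals that cover counting error only. The median mitochondrial share was 0.243% and 0.256% in low-mt barcodes of replicates 1 and 2, against 6.49% and 6.84% in matched barcodes. The median barcode had 4 and 5 mitochondrial UMIs, and 10 and 16 low-mt barcodes had 0. Few barcodes lay between the classes, since 19 in replicate 1 and 27 in replicate 2 had 1 to 2%.

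**Figure D1:**
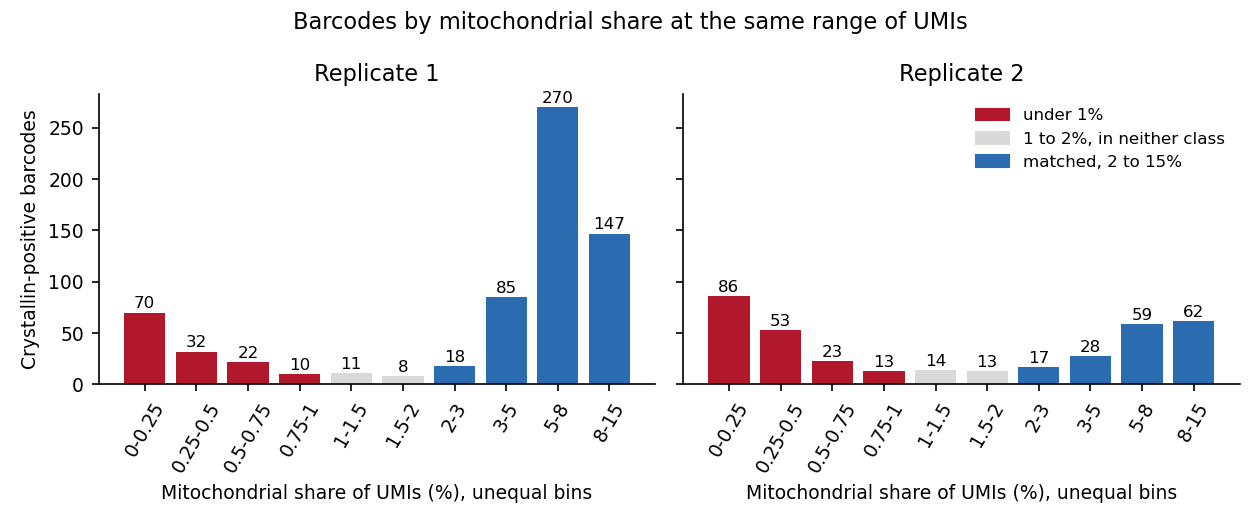
Number of barcodes (y axis) in bins of mitochondrial share of UMIs (x axis, bins of unequal width) among crystallin-positive barcodes of 949 to 4000 UMIs, in replicate 1 (left) and replicate 2 (right). Low-mt bins are red and matched bins blue, and the number of barcodes stands over each bar. In replicate 1 the bins hold 70 barcodes under 0.25%, 8 at 1.5 to 2% and 270 at 5 to 8%, and in replicate 2 they hold 86, 13 and 59.

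The most abundant mitochondrial genes were low together and kept similar shares among the mitochondrial UMIs that remained. For mt-Co3, a subunit of cytochrome c oxidase, 160 and 192 UMIs were counted in low-mt barcodes of replicates 1 and 2, which is 672 and 559 UMIs per 1000000 non-mitochondrial UMIs (called CPM from here on), against 14590 and 15070 CPM in matched barcodes. It made up 22.5% and 20.4% of the mitochondrial UMIs in low-mt barcodes, against 19.7% and 18.6% in matched barcodes. mt-Atp6 made up 18.5% and 21.9% in low-mt barcodes, against 19.1% and 20.7%. mt-Nd4l was at 0 UMIs in low-mt barcodes of replicate 1 and at 1 UMI in those of replicate 2. Alpha-crystallins, small heat shock proteins and the rule's other criterion, were high, with a median share of Cryaa and Cryab of 8.06% and 8.26% of UMIs in low-mt barcodes, against 5.39% and 5.39% in matched barcodes.

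Low-mt barcodes were shallow. Their medians were 1710 and 1808 UMIs and 741 and 781 genes, against 3406 and 3096 UMIs and 1480 and 1342 genes in matched barcodes. Among crystallin-positive barcodes, the share under 1% was 63.2% (95% exact interval 52.6 to 72.8%) and 62.8% (52.2 to 72.5%) at 949 to 1499 UMIs in replicates 1 and 2. At 2500 to 4000 UMIs it was 4.22% and 21.8%, and at 6000 to 9999 UMIs 0.204% and 0.444%. The pools lay further apart at 1500 to 2499 UMIs, with 31.4% and 54.1%. Barcodes with less than 2% of Cryaa and Cryab had a share under 1% mitochondrial of 8.54% (3.501 to 16.8%) and 11.1% (4.92 to 20.7%) at 949 to 1499 UMIs. Above 4000 and up to 5999 UMIs the shares were 0.318% (0.169 to 0.543%) and 2.60% (1.67 to 3.84%) in crystallin-positive barcodes. In crystallin-poor ones they were 1.00% (1 of 100 barcodes, 0.0253 to 5.45%) and 5.83% (7 of 120, 2.38 to 11.7%). The intervals overlapped in both pools, so no order is drawn at this depth. These shares rest on the measures that chose the members and are given without a test.

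**Figure D2:**
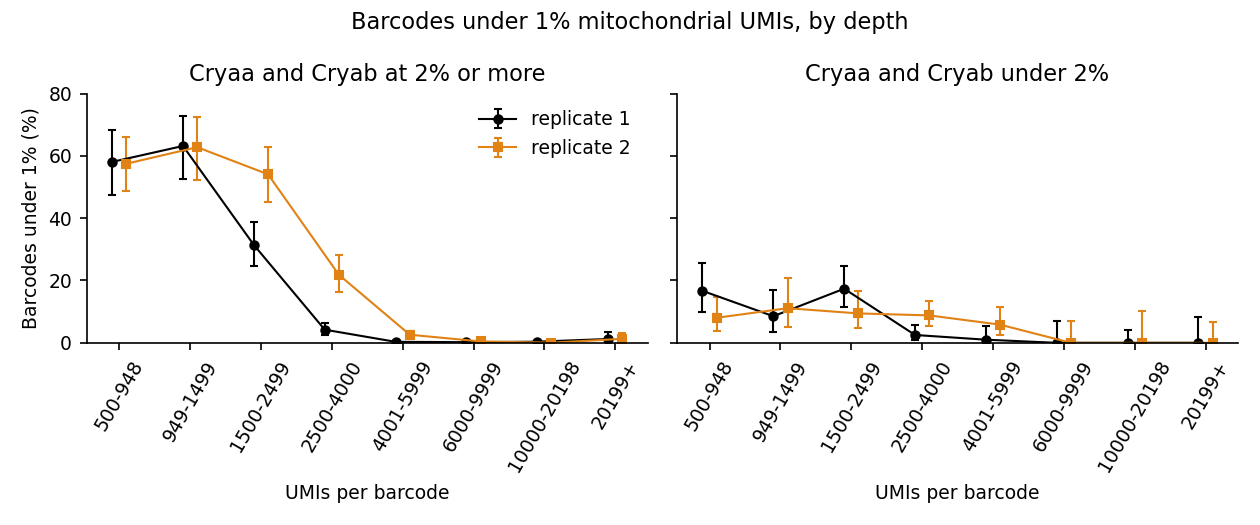
Share of barcodes under 1% mitochondrial UMIs (y axis, percent, with exact 95% binomial intervals) by UMIs per barcode (x axis) for barcodes at or above 2% (left) and below 2% (right) of Cryaa and Cryab, by replicate. Crystallin-positive barcodes lie at 63.2% and 62.8% at 949 to 1499 UMIs and at 0.204% and 0.444% at 6000 to 9999 UMIs.

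Low-mt barcodes also held lens transcripts that the rule did not use. Beta and gamma crystallins, structural proteins of the lens, took a median of 2.58% and 2.59% of the non-mitochondrial UMIs of a low-mt barcode, against 2.50% and 2.52% in matched barcodes, and 0.216% and 0.194% of all such UMIs in crystallin-poor barcodes of the same depth and 2 to 15% mitochondrial share. After each barcode was thinned to 800 non-mitochondrial UMIs, Pax6, a transcription factor of the lens and eye, had a UMI in 18.7% and 12.0% of low-mt barcodes, against 25% and 28.3% of matched barcodes (31.3% and 26.3%, against 60.6% and 55.4%, before thinning). The same share was 0.535% and 1.74% in Cldn5 barcodes. These had at least 3 UMIs of Cldn5, an endothelial gene, and less than 2% of Cryaa and Cryab. Their range of UMIs was the same and their mitochondrial share 2 to 15%. Cldn5 barcodes and crystallin-poor barcodes were thus chosen for little lens RNA. Neither therefore measures the free lens RNA that a low-mt barcode may hold. How much of the RNA of a low-mt barcode was free RNA of the suspension was not tested. Foxe3, a transcription factor of LECs, had only 1 UMI in each replicate and could not be used. The class is called by its mitochondrial share and not by a cell type, because most epithelial genes were low in it and fiber genes were divided.

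Markers of other cells were scarce. The summed level of 15 endothelial genes was 0.00378% and 0.0116% of non-mitochondrial UMIs in low-mt barcodes, against 0.0177% and 0.0231% in matched barcodes, and that of 13 mural genes was 0.0177% and 0.0189%, against 0.0450% and 0.0328%. Of 13 macrophage genes, 11 were at 0 in the low-mt barcodes of both replicates, C1qb among them, as were 10 of 11 retinal and neuronal, 7 of 8 pigment cell, 5 of 8 fibroblast and 5 of 7 corneal genes. Col6a3, a collagen chain on the fibroblast list, was higher, at 122 and 114 CPM in low-mt barcodes, against 95.8 and 60.6 CPM in matched barcodes (log2 fold change 0.84, SE 0.25, adjusted p = 0.00292 in edgeR), while Pdgfra of the same list was lower. Hemoglobin was another exception in replicate 1, with 282 UMIs in low-mt barcodes, of which 278 were in 5 barcodes, against 20 in matched barcodes. In replicate 2 there were 6 in low-mt barcodes, against 5 in matched barcodes. Without the barcodes of 5 or more hemoglobin UMIs, an alternative chosen after these values were seen, 926 genes were higher and 1238 lower in low-mt than in matched barcodes, within 1.5 times of the counts given next. The median doublet score from Scrublet was 0.0215 and 0.0228 in low-mt barcodes, against 0.0454 and 0.0371 in matched barcodes.

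For the comparison of all other genes, UMIs were summed per pool and class, mitochondrial UMIs were left out of the library sizes, and the sums were tested in edgeR with the pool as a block and Benjamini-Hochberg adjustment at 0.05. The sums held 237925 and 343519 non-mitochondrial UMIs in low-mt barcodes, against 1555009 and 445378 in matched barcodes. Genes with low counts were filtered out first, and a gene could pass this filter through the sums of 1 class alone. Counts and medians over the tested genes of a list can therefore lean towards that class. Of 4787 genes tested, 945 were higher (19.7% of genes tested) and 1221 lower (25.5%) in low-mt than in matched barcodes, and the median log2 fold change was -0.05. With library sizes that were not corrected by TMM, the median moved to -0.32 and the split to 466 higher and 1538 lower, and DESeq2 called 299 higher and 240 lower. Against deep barcodes, which share the low-mt sums, 785 of 13863 genes were higher (5.66%) and 1155 lower (8.33%), with a median of -0.54, and without TMM these were 376 and 1636, with a median of -0.80. DESeq2 called 634 higher and 448 lower against deep barcodes. With barcodes of up to 2000 UMIs in both classes, 110 of 1449 genes were higher and 297 lower, and with matched barcodes of 2 to 5% mitochondrial UMIs 250 of 3326 were higher and 551 lower. List medians are therefore to be read against the median of all genes, -0.05 against matched and -0.54 against deep barcodes. These medians are loose references, since they were -0.02 and -0.17 in DESeq2 and -0.63 and -1.52 without the filter on low counts. Fold changes also went with transcript length, so lists of short transcripts have a further reference, given below by length class. After TMM scaling, 943 of the 945 higher and 1218 of the 1221 lower genes moved as called in both pools, and against deep barcodes 779 of 785 and 1155 of 1155 did. CPM values are given without TMM scaling and log2 fold changes with it. The TMM factors were 0.93 and 0.89 in low-mt barcodes, against 1.11 and 1.09 in matched barcodes. Fold changes therefore lie above the ratios of the CPM printed beside them, and small increases rest partly on this scaling.

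Messages of the cytosolic ribosome stood out by their abundance. The 79 ribosomal protein genes took 25.4% and 27.3% of non-mitochondrial UMIs in low-mt barcodes of replicates 1 and 2, against 18.7% and 19.1% in matched barcodes and 18.8% and 20.2% in deep barcodes. All 79 of 79 tested were higher against matched barcodes, with a median log2 fold change of 0.75, and 79 of 79 against deep barcodes, with a median of 0.68. Over all alternatives run, the median against matched barcodes stayed between 0.48, without TMM, and 0.89. Rpl13, of the large subunit, was at 7343 and 7694 CPM in low-mt barcodes, against 5331 and 5548 CPM in matched barcodes (log2 fold change 0.74, SE 0.09, adjusted p = 2.70e-13). In single barcodes the ribosomal share had a median of 26.8% and 27.7% in low-mt barcodes, against 19.1% and 19.3% in matched barcodes, and its lower quartile in low-mt barcodes (23.4% and 24.3%) was above the upper quartile in matched barcodes (20.9% and 21.9%).

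Most translation factors were higher too. Of 24, 17 were higher and 1 lower against matched barcodes (median 0.55, lowest 0.20 over all alternatives). Tpt1, a growth-related protein that binds translation factors, was at 8751 and 9333 CPM in low-mt barcodes, against 7009 and 6736 CPM (0.67, SE 0.09, adjusted p = 1.15e-11). Eef1a1, the factor that brings aminoacyl-tRNA to the ribosome, was at 7649 and 6518 CPM, against 6646 and 6026 CPM (0.43, SE 0.09, adjusted p = 3.48e-05). Its log2 ratios of CPM, without TMM scaling, were smaller, at 0.20 and 0.11. The exception was Eif4a2, an RNA helicase of translation initiation, at 84.1 and 49.5 CPM, against 172 and 148 CPM (-1.01, SE 0.27, adjusted p = 8.49e-04). Host genes of small nucleolar RNAs were mixed, with 5 of 12 higher, among them Gas5, and 1 lower, Snhg20 (median 0.57).

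Nuclear messages for mitochondrial proteins were not low along with the messages of the organelle itself. Of 79 nuclear genes of oxidative phosphorylation, 51 were higher and 1 was lower against matched barcodes (median 0.56, lowest 0.27 over all alternatives). Among all protein-coding genes, the class of shortest transcripts, described below, had the same median. They took 3.24% and 3.41% of non-mitochondrial UMIs in low-mt barcodes, against 2.75% and 2.76% in matched barcodes. Cox8a, a subunit of cytochrome c oxidase, was at 1437 and 1569 CPM, against 1190 and 1129 CPM (0.65, SE 0.12, adjusted p = 4.25e-07). Atp5e, a subunit of ATP synthase, was at 984 and 1124 CPM, against 718 and 772 CPM (0.77, SE 0.13, adjusted p = 2.80e-08). Cox4i1 did not pass (0.25, SE 0.12, adjusted p = 0.0715), and Sdha, of succinate dehydrogenase, was the 1 lower gene (-0.78, SE 0.32, adjusted p = 0.0362).

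Other nuclear genes for mitochondrial proteins showed the same direction, with 21 of 43 higher and 3 lower (median 0.45, lowest 0.18 over all alternatives). Chchd2, of the space between the mitochondrial membranes, was at 1433 and 1578 CPM in low-mt barcodes, against 1203 and 1244 CPM (0.57, SE 0.12, adjusted p = 8.16e-06). Slc25a4, which exchanges ADP and ATP across the inner membrane, was at 1076 and 917 CPM, against 828 and 797 CPM (0.57, SE 0.13, adjusted p = 6.61e-05). Of the genes that express the mitochondrial genome only 4 of 21 passed the filter on low counts, and 1 was higher, Ssbp1, which binds single-stranded mitochondrial DNA (0.68, SE 0.21, adjusted p = 0.00441). Tfam, which packages that genome, was at 33.6 and 90.2 CPM, against 46.9 and 47.1 CPM, with low-mt pools on either side of the matched ones (adjusted p = 0.131).

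Genes of organelle clearance moved little. Of 14, 3 were higher and 0 lower against matched barcodes (median 0.15). The 3 were Gabarap and Gabarapl2, of the autophagosome, and Plaat3, a phospholipase that takes part in the loss of organelles in lens fibers. Plaat3 was at 206 and 253 CPM in low-mt barcodes, against 139 and 204 CPM (0.71, SE 0.20, adjusted p = 0.00129). Bnip3l, a receptor for mitophagy, was at 374 and 399 CPM, against 434 and 393 CPM (0.18, SE 0.16, adjusted p = 0.366).

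Among soluble proteins of the cytosol, the proteasome gave 21 of 31 genes higher and 0 lower (median 0.61, lowest 0.26 over all alternatives). Psma7, a subunit of its core, was at 643 and 556 CPM in low-mt barcodes, against 420 and 442 CPM (0.75, SE 0.15, adjusted p = 2.88e-06). Of 14 heat shock genes, 7 were higher, among them Hspa8, and 1 was lower, Dnajb1 (median 0.37, lowest 0.10 over all alternatives). In glycolysis 6 of 15 were higher and 3 lower (median 0.24, lowest -0.04 over all alternatives). The 6 were enzymes of the pathway, among them Gapdh at 4308 and 3182 CPM, against 2995 and 2620 CPM (0.68, SE 0.10, adjusted p = 1.53e-09). The 3 that fell were Hk2, a hexokinase, Slc2a1, the glucose transporter, and Slc16a3, a lactate transporter.

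Genes of glutathione and antioxidant defense parted in the same list, with 12 of 20 higher and 3 lower (median 0.58, lowest 0.25 over all alternatives). Prdx1, a peroxiredoxin of the cytosol, was at 1047 and 984 CPM in low-mt barcodes, against 737 and 564 CPM (0.92, SE 0.13, adjusted p = 5.71e-11), and Gstm1, a glutathione transferase, was at 2829 and 2620 CPM, against 2161 and 2095 CPM (0.63, SE 0.11, adjusted p = 7.04e-08). Prdx4, the peroxiredoxin of the ER, was at 79.9 and 90.2 CPM, against 397 and 319 CPM (-1.77, SE 0.22, adjusted p = 1.91e-14). The other genes that fell were Slc7a11, the membrane transporter that imports cystine, and Mgst1, a glutathione transferase of membranes.

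Of 31 cytoskeleton genes, 19 were higher and 5 lower (median 0.47, lowest 0.20 over all alternatives). Tmsb4x, which binds actin monomers, was at 1950 and 2664 CPM in low-mt barcodes, against 1186 and 1212 CPM (1.198, SE 0.11, adjusted p = 2.99e-24). Vim, the intermediate filament vimentin, was at 3699 and 3257 CPM, against 3325 and 3065 CPM (0.39, SE 0.10, adjusted p = 6.79e-04). Those that fell were Actn1, Actn4, Flna, Myh9 and Tpm1, actin-binding proteins and a myosin. Flna, which has one of the longest transcripts of the list, was at 8.41 and 5.82 CPM, against 61.7 and 53.9 CPM (-2.74, SE 0.58, adjusted p = 2.04e-05).

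Transcripts of the lens capsule were the lowest of the larger lists. All 24 matrix genes tested were lower against matched barcodes (24 of 24, median -2.77, or -2.11 without replicate 2), and 22 of 29 were lower against deep barcodes (median -2.58). The 24 were those of 29 that passed the filter on low counts. Some passed through the matched sums alone, such as the laminin Lama1, at 8.41 and 2.91 CPM, against 56.6 and 85.3 CPM. The count against matched barcodes therefore leans towards decreases. The list took 0.203% and 0.153% of non-mitochondrial UMIs in low-mt barcodes, against 1.26% and 1.204% in matched barcodes and 1.00% and 0.999% in deep barcodes. Col4a1, a chain of the collagen of basement membranes (chromosome 8, 11198423 to 11312826, mm10), was at 210 and 218 CPM, against 2484 and 2391 CPM (-3.23, SE 0.15, adjusted p = 7.01e-101), and deep barcodes had 2083 and 2196 CPM. Nid1, the linker protein nidogen, was at 96.7 and 104.8 CPM, against 845 and 873 CPM (-2.81, SE 0.19, adjusted p = 9.89e-46). Sparc, a collagen-binding matrix protein, was at 752 and 501 CPM, against 3260 and 2939 CPM (-2.06, SE 0.12, adjusted p = 1.77e-59). In 29 of 134 and 45 of 175 low-mt barcodes the list had 0 UMIs, against 1 of 520 and 0 of 166 matched barcodes, which are deeper.

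Channels, transporters and adhesion molecules of the plasma membrane were low as well, with 28 of 29 lower and 0 higher against matched barcodes (median -2.11). Slc2a1 was at 206 and 157 CPM in low-mt barcodes, against 1086 and 1037 CPM (-2.29, SE 0.17, adjusted p = 8.50e-40). Cdh1, the epithelial cadherin, was at 21.0 and 17.5 CPM, against 154 and 157 CPM (-2.75, SE 0.37, adjusted p = 2.24e-12). Cd63, a tetraspanin also counted with the lysosome, changed less, at 277 and 215 CPM, against 744 and 802 CPM (-1.39, SE 0.16, adjusted p = 6.90e-16).

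Genes of protein folding and transport in the ER gave 26 of 32 lower and 3 higher (median -1.57). Hspa5, the main chaperone of the ER lumen, was at 130 and 75.7 CPM in low-mt barcodes, against 758 and 662 CPM (-2.55, SE 0.19, adjusted p = 2.53e-36). Calr, calreticulin, was at 202 and 102 CPM, against 996 and 698 CPM (-2.24, SE 0.18, adjusted p = 7.94e-34). The 3 that rose were Sec61b and Sec61g, small tail-anchored subunits of the translocon, and Srp14, a soluble protein of the signal recognition particle. Sec61b was at 694 and 716 CPM, against 549 and 552 CPM (0.63, SE 0.14, adjusted p = 5.37e-05).

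In the lysosome 19 of 20 genes were lower and 1 higher (median -1.97). Ctsl, the protease cathepsin L, was at 298 and 183 CPM in low-mt barcodes, against 1232 and 1266 CPM (-2.13, SE 0.15, adjusted p = 8.43e-40). Atp6v0c, a subunit of the proton pump within the membrane, was at 210 and 160 CPM, against 546 and 514 CPM (-1.25, SE 0.18, adjusted p = 2.65e-11). Atp6v1g1, a subunit of the part in the cytosol, was the gene that rose, at 488 and 384 CPM, against 370 and 326 CPM (0.60, SE 0.16, adjusted p = 5.93e-04).

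**Figure D3:**
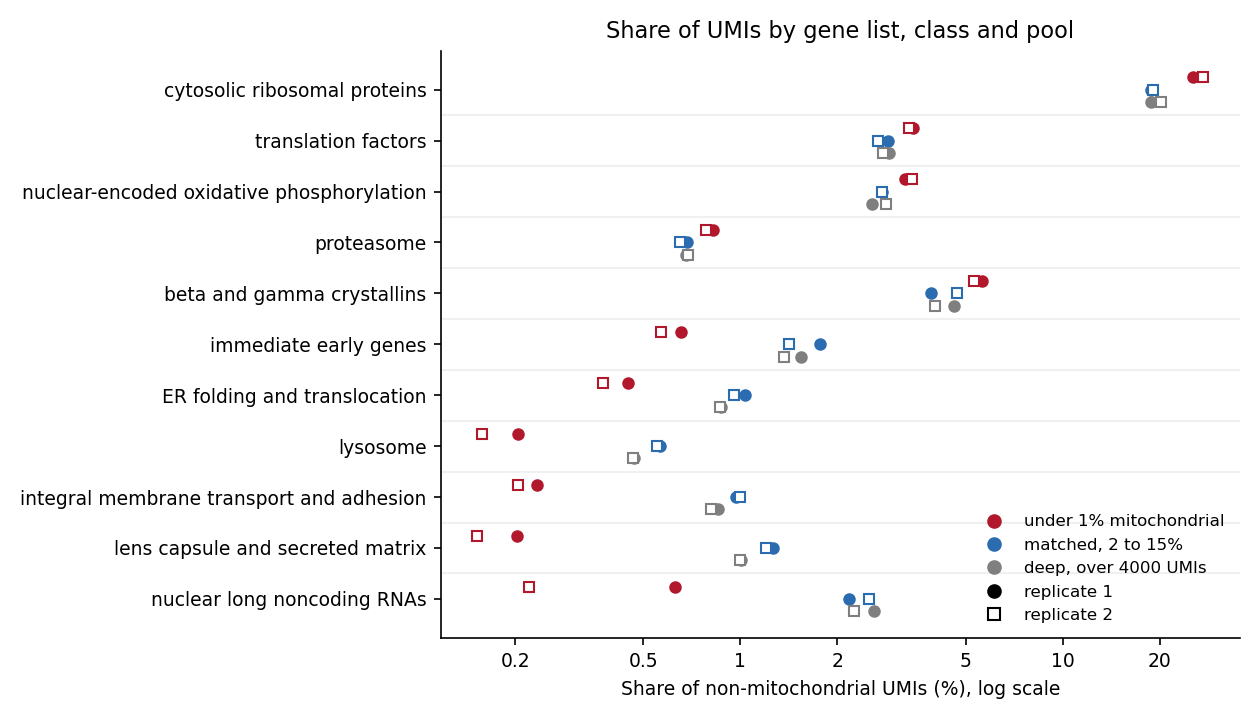
Share of non-mitochondrial UMIs taken by each gene list (x axis, percent, log scale) in low-mt barcodes (red), matched barcodes (blue) and deep barcodes (grey), with replicate 1 as filled circles and replicate 2 as open squares. In both pools, low-mt barcodes lie right of the other classes for ribosomal proteins (25.4% and 27.3%) and left of them for the lens capsule (0.203% and 0.153%).

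RNAs kept in the nucleus took a small share of UMIs in most low-mt barcodes. Malat1 (chromosome 19, 5795690 to 5802672, mm10) took a median of 0.0703% and 0.0557% of a low-mt barcode's non-mitochondrial UMIs, against 1.65% and 1.28% in matched barcodes. Of 15 nuclear long noncoding RNAs, 8 passed the filter on low counts, Neat1 through the matched sums alone. Of the 8 tested, 7 were lower and 0 higher (median -2.07), and Malat1 fell by 2.37 on the log2 scale (SE 0.09, adjusted p = 1.96e-128). The sum of replicate 1 was decided by 1 barcode with 44.7% Malat1, without which Malat1 was at 0.223% rather than 0.596% of UMIs, against 0.205% in replicate 2. Leaving out barcodes over 10% Malat1 from both classes, an alternative added after this was seen, left 883 genes higher and 1163 lower, and moved the median of the list of nuclear RNAs to -3.28. That median was -1.41 without replicate 2, -3.47 with a crystallin limit of 4%, and -1.35 against matched barcodes of 2 to 5% mitochondrial UMIs. Kcnq1ot1, an imprinted antisense RNA, was at 54.6 and 5.82 CPM in low-mt barcodes, against 397 and 312 CPM (-3.44, SE 0.29, adjusted p = 1.89e-30), and Neat1, the scaffold of paraspeckles, had 3 and 0 UMIs, against 218 and 53. Neat1 was thus at a ratio of 0.0381 (exact 95% interval 0.00781 to 0.113, counting error only).

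At equal depth the same RNAs were found in fewer barcodes. Thinned to 800 non-mitochondrial UMIs, which left out 0 barcodes, Malat1 had a UMI in 52.99% and 44.0% of low-mt barcodes, against 97.3% and 96.4% of matched barcodes (67.2% and 66.9%, against 98.8% and 98.8%, before thinning). Col4a1 was found in 14.9% and 12.6% of low-mt barcodes, against 82.3% and 78.9%, and Hspa5 in 5.22% and 3.43%, against 42.1% and 37.4%. The draw mattered for the rarer values, since with another random seed Hspa5 was found in 11.2% and 6.29% of low-mt barcodes, against 43.1% and 39.8%, and Malat1 in 42.5% and 43.4%, against 97.3% and 96.99%. Slc7a11 was found in 2.99% and 1.14% of low-mt barcodes, against 22.7% and 19.3% of matched barcodes and 0% and 1.74% of Cldn5 barcodes. With the other seed these were 1.49% and 1.71%, against 24.6% and 18.1% of matched barcodes and 0% and 0% of Cldn5 barcodes. The share of Slc7a11 in low-mt barcodes thus lay near that in Cldn5 barcodes, above it in replicate 1 and on either side of it by seed in replicate 2. Rps26, a ribosomal protein gene, went the other way, in 90.3% and 93.1% of low-mt barcodes, against 79.2% and 76.5%. Low-mt barcodes had a median of 457.5 and 446 genes at this depth, against 531 and 523.5 in matched barcodes.

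Immediate early genes, which are induced within minutes by growth factors or by handling of cells, gave 20 of 24 lower and 0 higher (median -1.33). Jun was at 340 and 512 CPM in low-mt barcodes, against 1938 and 1850 CPM (-1.87, SE 0.13, adjusted p = 4.91e-41). Btg2, which restrains proliferation, was at 412 and 387 CPM, against 2138 and 1540 CPM (-1.91, SE 0.14, adjusted p = 1.71e-41). Fos, the partner of Jun, changed less, at 1896 and 1758 CPM, against 4080 and 2937 CPM (-0.65, SE 0.11, adjusted p = 3.06e-08). Genes of stress and p53 gave 1 of 12 higher and 3 lower (median -0.42), and Bax, which permeabilizes mitochondria in apoptosis, did not pass (0.29, SE 0.19, adjusted p = 0.199).

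Genes that mark the lens epithelium were mostly low. Of 19 lens epithelium genes, 15 were lower and 1 higher against matched barcodes (median -1.48). Several that fell code for membrane or secreted proteins, such as Cdh1, Gja1, Folr1 and Spon1, while Pax6, a nuclear protein, was at 231 and 166 CPM, against 377 and 377 CPM (-0.66, SE 0.18, adjusted p = 0.00102). Anxa1, a soluble protein that binds membranes, was the gene that rose, at 1639 and 1208 CPM, against 1460 and 1363 CPM (0.27, SE 0.12, adjusted p = 0.0403). By CPM Anxa1 lay above matched barcodes in replicate 1 only, and after TMM scaling in both pools. Aldh1a1, a cytosolic enzyme of retinoic acid synthesis, was at 1013 and 704 CPM, against 1131 and 950 CPM (-0.02, SE 0.13, adjusted p = 0.922). Igfbp5, a secreted binding protein of growth factors, was at 92.5 and 17.5 CPM, against 797 and 323 CPM (-3.16, SE 0.24, adjusted p = 5.25e-38).

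Fiber cell genes were divided, with 5 of 14 higher and 4 lower (median -0.02, or -1.32 with barcodes of up to 2000 UMIs in both classes). Those lower were Prox1, a transcription factor, and the membrane proteins Lim2, Mip and Gja3, and Mip, the lens water channel, was at 109 and 140 CPM in low-mt barcodes, against 363 and 469 CPM (-1.46, SE 0.20, adjusted p = 3.48e-12). Those higher included Grifin, a soluble galectin-like protein of the lens, at 1017 and 1182 CPM, against 794 and 932 CPM (0.62, SE 0.13, adjusted p = 6.04e-06), Bfsp2, a subunit of the beaded filament, Rbm24, Abca4, a lipid transporter of membranes, and Cdkn1c, a cell-cycle inhibitor. Cdkn1c was at 2055 and 2972 CPM, against 875 and 1253 CPM (1.51, SE 0.11, adjusted p = 5.20e-38), but deep barcodes had 2657 and 2659 CPM (0.15, adjusted p = 0.350).

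Of 13 beta and gamma crystallins, 9 were higher and 3 lower against matched barcodes (median 0.50), among the higher Cryba4, which was above matched barcodes in replicate 1 and below them in replicate 2, and 11 of 14 were higher against deep barcodes (median 0.81). Cryba1 was at 9902 and 10540 CPM in low-mt barcodes, against 5017 and 6918 CPM (1.07, SE 0.09, adjusted p = 1.78e-28), while Cryga was at 33.6 and 5.82 CPM, against 98.4 and 406 CPM (-3.62, SE 0.36, adjusted p = 4.87e-22). The direction depended on which barcodes were compared. With barcodes of up to 2000 UMIs in both classes (91 and 103 low-mt, against 43 and 30 matched) the median was -1.78 and Cryba1 fell by 1.29, and with matched barcodes of 2 to 5% the median was -0.62. The sums also rest on a few barcodes, since 12 and 16 low-mt barcodes and 26 and 14 matched barcodes had over 10% of beta and gamma crystallins, and without these the share was 2.79% and 3.22% in low-mt barcodes, against 2.48% and 2.61%. In those rich low-mt barcodes the lens capsule list was low too, at 0.105% and 0.109%.

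Genes of the cell cycle led the list of largest increases against matched barcodes. Ube2c, an enzyme that marks mitotic proteins for degradation, was at 319 and 189 CPM in low-mt barcodes, against 43.7 and 53.9 CPM (2.76, SE 0.24, adjusted p = 4.17e-29). Cdk1, the kinase of mitotic entry, was at 193 and 169 CPM, against 45.7 and 49.4 CPM (2.23, SE 0.25, adjusted p = 1.32e-17). Of 27 G2 and mitosis genes, 15 were higher and 1 lower (median 0.98), of 24 S phase genes 10 were higher and 0 lower (median 0.59), and of 9 replication-dependent histones, whose messages mostly lack poly(A) tails, 6 were higher and 0 lower (median 1.32, or 0.34 with barcodes of up to 2000 UMIs). These genes passed the filter on low counts, out of 49, 38 and 34 on the lists. Some passed through the low-mt sums alone, such as the mitotic cyclin Ccnb1, at 71.45 and 37.8 CPM, against 16.1 and 18.0 CPM. The counts and medians therefore lean towards increases. Over all alternatives, which included no filter, the lowest medians were 0.41, 0.31 and 0.34.

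Against deep barcodes the medians of these lists were nearer to 0. The median of all genes in that comparison was -0.54, but it moved to -0.17 in DESeq2 and to -1.52 without the filter on low counts. Whether the lists lay above all genes there is therefore not settled. Of 49 G2 and mitosis genes 8 were higher and 8 lower (median -0.15), of 38 S phase genes 4 were higher and 1 lower (median -0.18), and of 33 histones 4 were higher and 1 lower (median 0.20), with 2 of the 4, Hist1h1e and Hist1h2ab, higher in replicate 2 only. Ube2c stood at 155 and 165 CPM in deep barcodes (0.86, adjusted p = 2.01e-07) and Prc1, a protein of the spindle midzone, at 76.7 and 82.9 CPM in deep barcodes, against which its 84.1 and 87.3 CPM in low-mt barcodes did not pass (0.35, adjusted p = 0.433). The G2 and mitosis list took a median of 0.153% and 0.154% of a low-mt barcode's UMIs, against 0.115% and 0.115% in matched barcodes, and its 90th percentile was 1.74% and 1.303% in low-mt barcodes, against 0.649% and 0.755% in matched barcodes and 1.14% and 1.22% in deep barcodes. Mki67, a long transcript that marks dividing cells, was low in both comparisons, at 12.6 and 17.5 CPM in low-mt barcodes, against 59.2 and 85.3 CPM in matched barcodes (-1.98, SE 0.46, adjusted p = 1.08e-04) and 110 and 123 CPM in deep barcodes (-2.68, adjusted p = 1.57e-12).

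**Figure D4:**
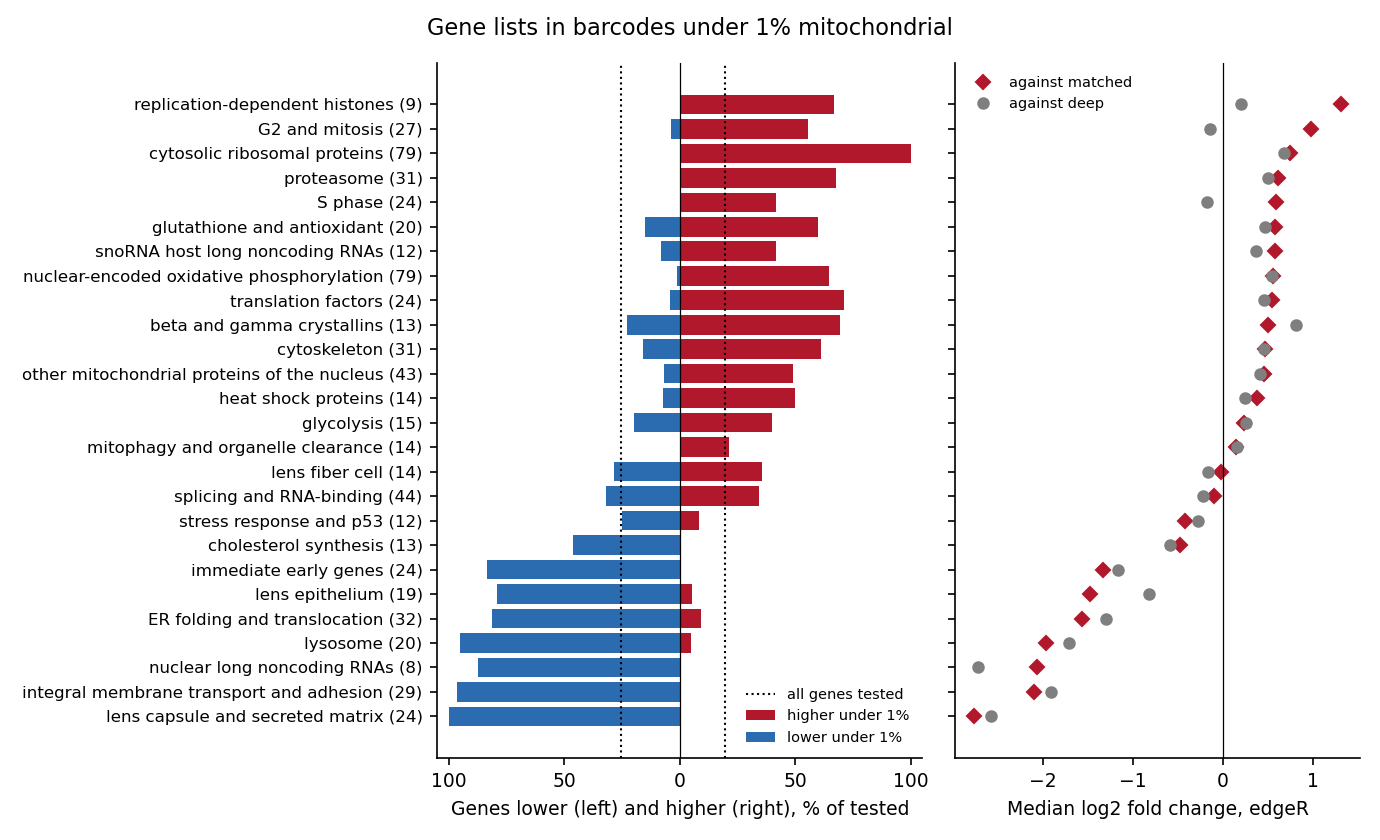
Left, share of each list's tested genes (number in brackets) that were higher (red) or lower (blue) in low-mt than in matched barcodes, with dotted lines at the shares over all genes tested (19.7% higher and 25.5% lower). Right, median log2 fold change of each list (x axis) against matched barcodes (diamonds) and deep barcodes (circles). Ribosomal proteins lie at 0.75 and 0.68 and the lens capsule at -2.77 and -2.58, whereas G2 and mitosis genes lie at 0.98 and -0.15.

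The largest decreases rested on few transcripts. Igsf3, a membrane protein of the immunoglobulin family, had 1 and 0 UMIs in low-mt barcodes, against 181 and 33 in matched barcodes, a ratio of 0.0161 (exact 95% interval 4.05e-04 to 0.0905, counting error only). Ptprd, a receptor phosphatase, had 0 and 2 UMIs, against 147 and 34 (ratio 0.0380, 0.00457 to 0.139), and Celsr2, an adhesion receptor of planar cell polarity, had 1 and 1, against 101 and 36 (0.0502, 0.00602 to 0.185). Slc7a11 had more counts, with 6 and 6 UMIs, against 603 and 132, and was at 25.2 and 17.5 CPM, against 388 and 296 CPM (-3.73, SE 0.30, adjusted p = 9.53e-32). Fat1, a giant cadherin, was at 8.41 and 17.5 CPM, against 195 and 202 CPM (-3.58, SE 0.38, adjusted p = 4.05e-19). Of the 15 named decreases, the others were Neat1, Colgalt1, Bhlhe40, Scube3, Gpc6, Elovl6, Mir99ahg, Cryga, Pcsk5 and Stat3.

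Several of these genes have long transcripts, and length went with the fold change across genes. Over 4721 protein-coding genes, Spearman's rho between the length of the longest annotated transcript and the log2 fold change against matched barcodes was -0.527 (a description across genes, which share the libraries and are not replicates), and over 12556 genes against deep barcodes it was -0.359. With genes split into 5 classes of about equal size by length, from class 1 (short) to class 5 (long), the median log2 fold changes against matched barcodes were 0.56, 0.25, -0.02, -0.40 and -1.10. In class 1 (374 to 1649 bases) 439 of 945 genes were higher and 66 lower, and in class 5 (5223 bases and over) 32 of 944 were higher and 508 lower. The class 1 median of 0.56 was near that of several lists. These were 0.56 for oxidative phosphorylation, 0.61 for the proteasome, 0.55 for translation factors and 0.47 for the cytoskeleton. Ribosomal proteins had 0.75. Whether each list differed from other genes of its length was not tested.

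The lists were also set side by side within each length class, without a test. The 4 lists of ER-routed proteins (matrix, plasma membrane, ER and lysosome) had 96 of 104 protein-coding genes lower and 4 higher, and 6 cytosolic lists (ribosome, translation factors, proteasome, glycolysis, cytoskeleton and heat shock) had 149 of 194 higher and 10 lower. The 4 higher on the ER-routed lists were Sec61b, Sec61g, Srp14 and Atp6v1g1, named above as tail-anchored, soluble or cytosolic proteins. Secreted and membrane proteins on the fibroblast and fiber lists were not counted there. Among them, Col6a3 (0.84) and Abca4 (1.81) were higher against matched barcodes, and Pdgfra, Lim2, Mip and Gja3 were lower. Lists were taken whole, so the cytosolic ones held the membrane transporters Slc2a1 and Slc16a3, and Slc2a1 counted on both sides. The 194 cytosolic genes also held the 79 ribosomal protein genes, all of them higher. No split by length was made without those, so the cytosolic medians do not speak for the other cytosolic lists. In length class 1, 3 of 8 genes of the ER-routed lists were higher and 4 lower, and these 3 were among the 4 just named. The median was -0.37, beside 0.72 over 93 cytosolic genes and 0.56 over all genes. In length class 2 the medians were -1.97 over 20 ER-routed genes and 0.62 over 50 cytosolic genes, beside 0.25 over all genes. In class 4 they were -2.23 over 21 and 0.40 over 13, beside -0.40 over all genes. Against deep barcodes class 2 gave -1.71 over 32 ER-routed genes and 0.46 over 42 cytosolic genes. In class 5 both were negative, at -2.84 over 28 ER-routed and -0.52 over 6 cytosolic genes.

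**Figure D5:**
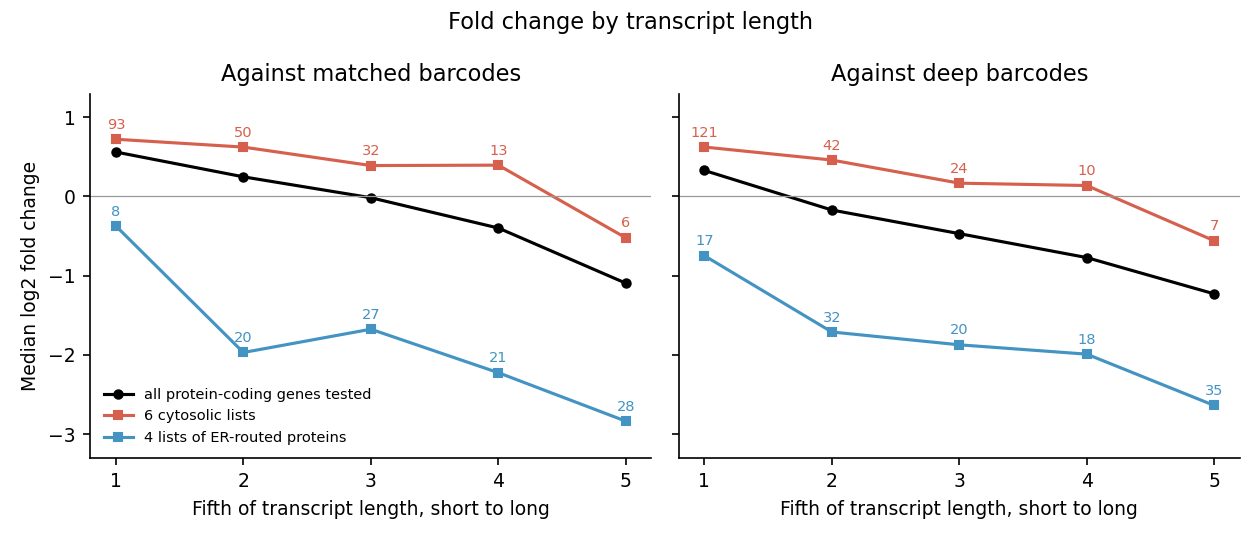
Median log2 fold change of low-mt barcodes (y axis) by class of transcript length from short to long (x axis) against matched (left) and deep barcodes (right), for all protein-coding genes tested (black), 6 cytosolic lists (red) and 4 lists of ER-routed proteins (blue), with the number of list genes beside each point. The blue points lie below the black line in each class and the red points above it, as in class 2 against matched barcodes (-1.97, 0.25 and 0.62). The red points include the 79 ribosomal protein genes.

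Of 44 splicing and RNA-binding genes, 15 were higher and 14 lower (median -0.10), with Rbm3 higher (0.57, SE 0.12, adjusted p = 2.11e-05) and Ddx17 among those lower. Of 13 genes of cholesterol synthesis and uptake, 6 were lower and 0 higher (median -0.47), and the list took 0.0471% and 0.0483% of non-mitochondrial UMIs in low-mt barcodes, against 0.0938% and 0.0878% in matched barcodes. Gm42418, which overlaps ribosomal RNA repeats and differed between pools in every class, was at 1475 and 10220 CPM in low-mt barcodes, against 2680 and 11690 CPM (-0.23, SE 0.10, adjusted p = 0.0418, with the pools on either side of 0 after TMM scaling), whereas deep barcodes had 1298 and 4555 CPM (0.98, adjusted p = 1.05e-21).

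The same quantities were followed across the limit, without a test. Just inside it, at 0.75 to 1% mitochondrial UMIs (10 and 13 barcodes), ribosomal proteins took 25.7% and 24.8% and the lens capsule list 0.277% and 0.577% of non-mitochondrial UMIs. Just outside it, at 1 to 1.5% (11 and 14 barcodes), ribosomal proteins took 18.3% and 23.4% and the capsule list 0.780% and 0.584%. Within low-mt barcodes, the capsule list was at 0.166% and 0.0848% under 0.25% mitochondrial UMIs and at 0.330% and 0.191% at 0.5 to 0.75%, so that barcodes with the fewest mitochondrial transcripts had the fewest capsule transcripts in both pools. At 8 to 15% the capsule list reached 1.61% and 1.51%.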

How the data were processed

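The deposited files hold raw UMI counts per gene and barcode, which the authors made with Cell Ranger (6.1.1 per the file headers) from 10x Genomics libraries aligned to mm10. No value had been normalized. The low UMI and gene limits are the 2nd percentile over both pools and the upper limit of deep barcodes is the 97th. Reads of near-identical copies (gamma crystallins, ribosomal pseudogenes) may be split or lost in such counts.

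UMIs were summed per pool and class. The mitochondrial genes, Cryaa and Cryab, which chose the members, were left out of all tests. edgeR 4.0.16 (R 4.3.3) was run with filterByExpr, TMM, quasi-likelihood tests and the pool as a block, because both classes of a pool come from the same animals, and Benjamini-Hochberg values under 0.05 were called. The prior degrees of freedom were infinite, so that a spread estimated over genes together, which may follow their abundance, stood behind the p-values. With 2 pools no permutation test can reach 0.05. DESeq2 1.42.0 was an alternative, and others changed the filter, scaling, limits, barcodes and pools. On simulated sums like those of low-mt and matched barcodes, edgeR found 27 of 100 genes changed 2-fold and 78 of 100 changed 4-fold.

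The members and the 36 gene lists were chosen with earlier results of these data known. Named genes were the 15 largest increases and decreases per comparison that were past the threshold, changed alike in both pools and had at least 50 CPM in the higher class, and the 4 most abundant members of each list, with other members named after their values were seen. Some genes that this rule names are not reported here. Positions and lengths come from GENCODE on mm10. Scrublet scores (scanpy 1.11.5) removed no barcode from the main classes. Barcodes were thinned by random draws with a fixed seed.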

Additional observations from a re-analysis of the deposited data

How the results depend on the processing

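Against matched barcodes, the counts of genes higher and lower moved by over 1.5 times in DESeq2 (299 and 240, where the main counts were 945 and 1221), with barcodes of up to 2000 UMIs (110 and 297), with matched barcodes of 2 to 5% (250 and 551) and without barcodes of over 10% beta and gamma crystallins (576 and 795, chosen after seeing the data). Without TMM, 466 were higher. Against deep barcodes, DESeq2 called 448 lower, and 376 were higher without TMM. Of the 2166 main calls, 2161 could be fitted in DESeq2 and all kept their direction, with 539 still called. At up to 2000 UMIs 1015 could be fitted, of which 98 took the opposite direction and 8 were called in it.

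Leaving the pool out of the fit (no replicate block) gave 890 higher and 1163 lower against matched barcodes and 777 and 1345 against deep barcodes. With 1 pool left out no residual degrees of freedom remain, so counts of calls were not recomputed. The number of lists that kept their direction was 17 of 17 without either pool, and the difference in median genes at equal depth was -77.5 without replicate 1 and -73.5 without replicate 2.

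Of 17 lists with at least 50% of their genes called one way, beta and gamma crystallins alone turned round, to a median of -1.78 at up to 2000 UMIs and -0.62 against barcodes of 2 to 5%. Single genes were followed only for a set of named ones, of which 79 could be fitted at up to 2000 UMIs and 90 against barcodes of 2 to 5%. At up to 2000 UMIs 8 of the 79 turned round. They were Psmb6 (-0.0914), Vim (-0.0400), Srp14 (-0.57), Cdkn1c (-0.35), Crybb3 (-0.45), Cryba1 (-1.29), Cryba2 (-1.56) and Crybb1 (-2.02), of which only Cryba1, Cryba2 and Crybb1 were called. Against barcodes of 2 to 5%, 4 of the 90 turned round. They were Crybb3 (-0.0398), Cryba1 (-0.17), Cryba2 (-0.0874) and Crybb1 (-0.69), of which only Crybb1 was called. Over all 1648 main calls that could be fitted there, 17 took the opposite direction and 4 were called in it. Crygd turned to 0.0771 with the gene minimum in both classes and to 0.0771 without barcodes of over 10% beta and gamma crystallins. The cause was not tested. Low-mt sums of 237925 and 343519 UMIs limit what can be said of genes with few UMIs, and the class limits, dissociation and cell calling by the authors cannot be told apart from a property of the cells.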

Other observations

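Crystallin-positive barcodes under 1% mitochondrial UMIs also occurred outside the UMI range of the members, and their composition depended on depth. Below 949 UMIs there were 54 in replicate 1 and 77 in replicate 2, with 26.3% and 25.3% ribosomal protein transcripts, 0.334% and 0.238% lens capsule transcripts and 0.212% and 0.639% Malat1, the nuclear noncoding RNA. Above 4000 UMIs there were 32 and 48, with 15.9% and 19.2% ribosomal protein transcripts and 0.541% and 0.396% lens capsule transcripts. These deeper barcodes held 15.9% and 13.3% beta and gamma crystallins, against 5.62% and 5.32% in the members.

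Barcodes of 949 to 4000 UMIs and under 1% mitochondrial UMIs but with less than 2% of Cryaa and Cryab were led by erythroid genes. There were 37 in each replicate, and those genes took 88.7% and 89.1% of their non-mitochondrial UMIs. Red blood cells lose their mitochondria as they mature, as background. Ribosomal protein transcripts were 2.02% and 2.46% there, against 25.4% and 27.3% in the members.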
